A study of Mus musculus with 8 samples.

Results

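Segments of the genome that carried dimethylation of lysine 9 of histone H3 (H3K9me2) and neither the monomethylated (H3K9me1) nor the trimethylated (H3K9me3) state were described in MEFs (fibroblasts cultured from mouse embryos) of wild-type genotype. The 3 deposited region lists were divided into runs of bases by the set of marks covering them, on chromosomes 5, 8, 9, 10, 11, 14, 15, 17 and 19, and runs of at least 1500 bp covered by H3K9me2 alone were kept. This gave 8823 H3K9me2-only segments among 90626 segments of any mark set under the same rule, or 9.74%. They held 28.1 Mb, which was 2.78% of the sequence of the 9 chromosomes and 11.7% of the 239.5 Mb under H3K9me2 there. The segments were selected on the region calls themselves, so the absence of the other marks in them is no finding, and all 8823 were kept in what follows.

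The maps came from ChIP-seq, the sequencing of DNA recovered with an antibody to the mark. There were 8 samples, with 2 replicates each of input DNA, H3K9me1, H3K9me2 and H3K9me3. The cells were E1c MEFs, a clone with a conditional Eset1 (Setdb1) allele selected for high activity of the Cre recombinase, in which Eset1 was intact. They served as the study's wild type, and every mark was mapped in this 1 clone. Each mark had 1 region list for its replicates, without a value per sample or per region, so no replicate error could be given and no difference was tested. The study's methods give a sequencing depth per sample, but the lists do not give the number of reads under a region, and the absence of a mark means that no region was called. The lists hold no expression, so the cell type could not be checked against its markers.

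H3K9me2 in euchromatin is made mainly by the enzyme pair G9a (Ehmt2) and Glp (Ehmt1), and is known for gene repression and for broad domains at the nuclear periphery. The same enzymes also make H3K9me1, while the Suv39h enzymes add H3K9me3 at pericentric heterochromatin and Setdb1 at retrotransposons. H3K9me2 is thus chemically an intermediate, and it is often found together with a neighbouring methylation state. The question addressed here is where the dimethyl state was called by itself, and what sequence and which genes lie there.

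The start of each of 7 genes shows the kind of sequence involved. The genes are the study's examples Treml4 and Olfr1431 and, for each family with more than 1 gene start in a segment, the gene in the widest segment for which RefSeq gave a start window inside it. Defb40, the other example of the study with its start in a segment, had no such window. The starts shown for Olfr51, Olfr1431 and Kcnj1 lie inside the annotated gene and not at its 5′ end. Each window runs 5′ to 3′ from 250 bases before to 50 bases after the start on GRCm38, with CG dinucleotides and the motif TATAAA in capitals.
Defa32 (chr8:21528780-21529079, plus strand): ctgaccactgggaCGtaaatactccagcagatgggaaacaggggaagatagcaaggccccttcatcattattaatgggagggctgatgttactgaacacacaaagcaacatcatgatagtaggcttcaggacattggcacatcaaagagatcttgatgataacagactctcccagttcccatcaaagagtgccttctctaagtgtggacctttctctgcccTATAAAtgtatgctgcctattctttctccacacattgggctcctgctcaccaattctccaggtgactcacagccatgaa
H2-M11 (chr17:36546825-36547124, plus strand): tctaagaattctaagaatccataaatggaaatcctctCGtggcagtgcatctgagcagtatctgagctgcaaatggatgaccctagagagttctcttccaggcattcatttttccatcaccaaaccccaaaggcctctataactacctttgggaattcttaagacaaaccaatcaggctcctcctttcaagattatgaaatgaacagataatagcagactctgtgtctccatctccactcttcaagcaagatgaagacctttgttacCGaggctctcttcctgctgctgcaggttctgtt
Treml4 (chr17:48264045-48264344, plus strand): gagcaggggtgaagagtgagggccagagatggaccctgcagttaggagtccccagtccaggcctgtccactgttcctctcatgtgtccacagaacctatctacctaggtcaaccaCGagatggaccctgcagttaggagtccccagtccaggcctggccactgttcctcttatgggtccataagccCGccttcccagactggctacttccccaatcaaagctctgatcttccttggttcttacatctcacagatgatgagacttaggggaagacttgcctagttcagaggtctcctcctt
Olfr51 (chr11:51006724-51007023, plus strand): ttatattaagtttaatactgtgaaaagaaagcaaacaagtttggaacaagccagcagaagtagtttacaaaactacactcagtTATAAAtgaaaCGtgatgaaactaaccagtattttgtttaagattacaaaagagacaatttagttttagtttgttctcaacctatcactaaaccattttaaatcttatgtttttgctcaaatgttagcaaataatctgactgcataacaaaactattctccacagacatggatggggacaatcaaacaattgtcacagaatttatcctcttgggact
Olfr1431 (chr19:12209318-12209617, plus strand): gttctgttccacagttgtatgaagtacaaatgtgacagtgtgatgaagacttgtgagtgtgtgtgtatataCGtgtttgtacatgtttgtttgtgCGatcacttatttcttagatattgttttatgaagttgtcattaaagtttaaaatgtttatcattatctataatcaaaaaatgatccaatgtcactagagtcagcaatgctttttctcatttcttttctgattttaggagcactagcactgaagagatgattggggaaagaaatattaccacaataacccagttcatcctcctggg
Kcnj1 (chr9:32393735-32394034, plus strand): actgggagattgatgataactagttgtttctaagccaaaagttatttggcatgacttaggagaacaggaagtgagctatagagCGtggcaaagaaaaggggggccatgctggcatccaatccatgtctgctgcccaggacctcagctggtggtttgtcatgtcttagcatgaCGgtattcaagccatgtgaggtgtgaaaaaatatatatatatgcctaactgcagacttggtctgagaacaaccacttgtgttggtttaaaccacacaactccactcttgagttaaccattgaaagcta
Cyp19a1 (chr9:54268115-54268414, minus strand): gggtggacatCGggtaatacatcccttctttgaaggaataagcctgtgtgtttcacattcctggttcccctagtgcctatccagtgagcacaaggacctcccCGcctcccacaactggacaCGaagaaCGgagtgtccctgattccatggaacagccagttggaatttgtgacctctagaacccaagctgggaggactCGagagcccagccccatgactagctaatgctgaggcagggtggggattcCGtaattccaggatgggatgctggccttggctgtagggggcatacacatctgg

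Defa32 encodes an alpha-defensin of the gut and H2-M11 a nonclassical class I molecule of the major histocompatibility complex. Treml4 encodes a receptor of myeloid cells, and Olfr51 and Olfr1431 encode olfactory receptors. Kcnj1 encodes an inwardly rectifying potassium channel of the kidney tubule, and Cyp19a1 encodes aromatase, which makes oestrogens from androgens. The 7 windows held between 1 and 6 CG dinucleotides. A TATAAA on the gene's own strand was found in the windows of Defa32 and Olfr51. It began 29 bases before the start of Defa32. In Olfr51 it began 167 bases before the start shown, which is inside the annotated gene. A motif match is a description and not a factor's binding site.

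H3K9me2-only segments were short. Their quartiles of width were 1.5 kb, 2.25 kb and 3.75 kb, the 90th percentile was 6 kb and the widest measured 22.5 kb. Segments of 1500 or 2250 bp made up 54.2% of the set, whereas 1002 segments (11.4%) measured at least 6 kb and held 7.96 Mb, and 145 measured at least 10 kb. Just outside the limit lay 4149 runs of 750 bp, the width of 1 bin of the calls, and just inside it lay 2830 runs of 1500 bp. Pooled GC content was 41.8% in the runs of 750 bp and 42.1% in those of 1500 bp, and 33.6% and 33.2% of their bases were soft-masked, that is, marked as repeats in the reference.

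The median of 2.25 kb equalled that of the H3K9me1 and H3K9me3 segments without H3K9me2 (2288 segments) and was below the medians of the other mark sets. The median was 3 kb for H3K9me1 with H3K9me2 (10214 segments) and 3.75 kb for H3K9me2 with H3K9me3 (14865), for H3K9me1 only (25882), for H3K9me3 only (15435) and for all 3 marks (13119). The 90th percentile of 6 kb equalled that of H3K9me1 with H3K9me2 and was above the 4.5 kb of H3K9me1 with H3K9me3. It was below the 9.75 kb of H3K9me2 with H3K9me3, the 12 kb of H3K9me1 only, the 10.5 kb of H3K9me3 only and the 15 kb of all 3 marks. Width entered the rule through its lower limit, and these widths were not tested.

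**Figure D1:**
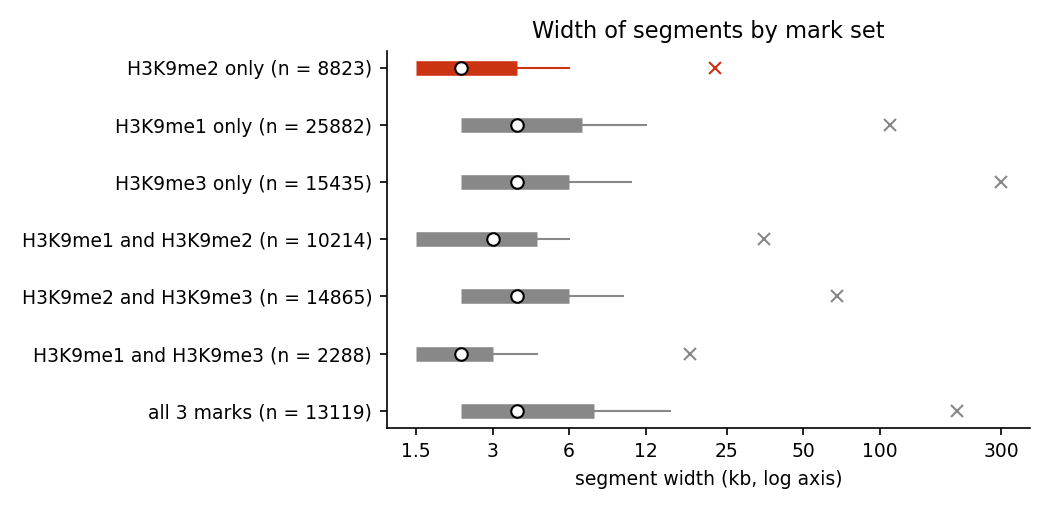
Width of segments by mark set (x, kb on a log axis; y, mark set with its number of segments). Thick bars span the quartiles, circles are medians, thin lines reach the 90th percentile and crosses mark the widest segment. The H3K9me2-only set (red) has a median of 2.25 kb and reaches 22.5 kb, while H3K9me3 only reaches 299 kb.

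Most segments lay at the edge of a wider H3K9me2 region or formed a region of their own. Of the 8823, 3309 (37.5%, Wilson 95% interval 36.5 to 38.5%) were a whole H3K9me2 region, 3837 (43.5%) lay at an edge of one and 1677 (19%) lay in its interior. Intervals on shares cover counting error only, and neighbouring segments are not independent. The regions around interior segments were wide, with a median of 17.2 kb, against 7.5 kb for edge segments. On the 9 chromosomes, 7808 of 27621 H3K9me2 regions (28.3%) held at least 1 segment. A single segment lay in 6936 of them, and the region richest in them held 6.

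The marks directly beside a segment divided the set into 4 groups. No other mark touched 3057 segments (34.6%), and these held 10.5 Mb. H3K9me1, without H3K9me3, lay beside 2349 (26.6%), H3K9me3, without H3K9me1, beside 2410 (27.3%), and both lay beside 1007 (11.4%). H3K9me1 and H3K9me3 thus bordered the dimethyl-only stretches about equally often. The commonest borders other than a bare one joined unmarked sequence on one side to H3K9me2 with H3K9me3 on the other (1777 segments) or to H3K9me1 with H3K9me2 (1640). A further 499 segments bridged from H3K9me1 with H3K9me2 on one side to H3K9me2 with H3K9me3 on the other.

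The 3057 segments that touched no other mark were not always far from one. Their median distance was 12 kb to the nearest H3K9me1 region and 9.75 kb to the nearest H3K9me3 region. H3K9me3 was the nearer mark for 1609 of them (52.6%) and H3K9me1 for 1349 (44.1%). H3K9me1 was at least 50 kb away from 847 (27.7%) and H3K9me3 from 461 (15.1%). A gap of a single 750 bp bin separated 191 from H3K9me1 and 176 from H3K9me3.

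Chromosomes differed in how much of their H3K9me2 stood alone. The amount of H3K9me2-only sequence lay in a narrow band, from 2.27 Mb on chromosome 11 to 4.37 Mb on chromosome 9. The H3K9me2 coverage of the same chromosomes ranged from 6.24% on chromosome 11 to 59% on chromosome 10. Segments made up 3.36% of the H3K9me2 bases on chromosome 10 and 6.35% on chromosome 15, and 36% on chromosome 14, 31.6% on chromosome 9 and 30.7% on chromosome 11. The densest chromosome was 19, with 16.8 segments per Mb and 4.91% of its sequence in segments, and the sparsest was 11, with 5.02 per Mb. Only 914 further segments lay on the other 12 main chromosomes, 904 of them on chromosomes 1 and 2. The 9 chromosomes held 94.9% of the 29119 H3K9me2 regions. The other 2 lists were also concentrated there, with 36774 of 42704 H3K9me1 regions and 23355 of 27108 H3K9me3 regions. The few segments elsewhere are thus not particular to H3K9me2-only sequence. The share of H3K9me2 in segments was lowest on the chromosomes with the widest H3K9me2 calls, while the length and density of segments did not follow coverage. The part of the extent of calling in that share was not tested.

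**Figure D2:**
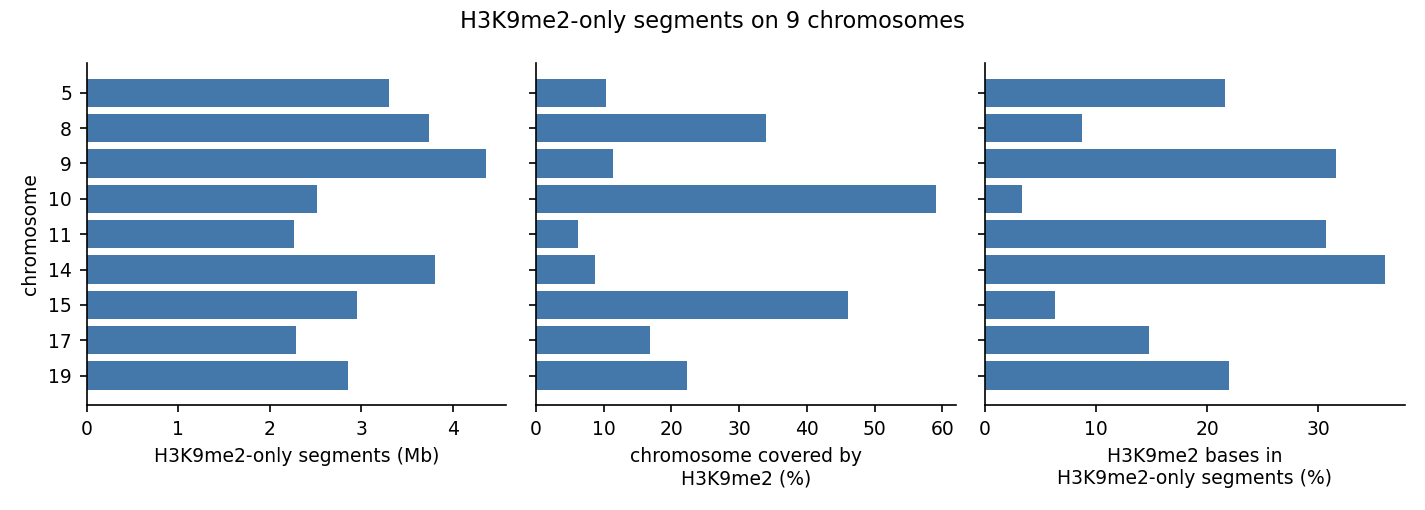
H3K9me2-only segments on the 9 chromosomes (y). The bars give their total length (left, Mb), the share of the chromosome covered by H3K9me2 (middle, %) and the share of H3K9me2 bases that lay in the segments (right, %). Chromosomes 10 and 15 have the highest H3K9me2 coverage and the lowest share of H3K9me2 in segments, 3.36% and 6.35%.

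Along the chromosomes, H3K9me2-only segments were scattered with some local crowding. Neighbouring segments were a median of 21 kb apart, with quartiles of 7.5 kb and 63 kb, and 217 of 1016 windows of 1 Mb (21.4%) held none. The median window held 14.2 kb and the fullest held 188 kb. When segments at most 10 kb apart were linked, 4245 of the 8823 stood alone and 623 fell into 109 chains of 5 or more. The longest chain had 14 segments over 112 kb of chromosome 14 (chr14:120584251-120696750) and met no protein-coding gene.

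The 5 fullest windows lay on chromosomes 14, 9 and 19. The first, chr14:51000001-52000000, held 35 segments and 188 kb of H3K9me2-only sequence among its 33 protein-coding genes. These include the ribonuclease A superfamily cluster (Rnase, Ang and Ear genes), whose secreted ribonucleases act in host defence and, for Ang, in vessel growth. The next was chr9:42000001-43000000 with 169 kb, which holds Grik4, a kainate-type glutamate receptor subunit, and Tecta, a protein of the inner-ear tectorial membrane. Next came chr14:24000001-25000000 with 168 kb, which holds the start of Kcnma1, a calcium-activated potassium channel, and chr19:59000001-60000000 with 156 kb, with the homeobox genes Emx2 and Vax1. The fifth, chr19:12000001-13000000, held 44 segments and 153 kb within an olfactory receptor cluster that includes Olfr1431.

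Of the 10 widest segments, 7 were mostly intergenic. The widest, chr11:19644751-19667250, measured 22.5 kb, met no annotated gene and lay inside a 52.5 kb H3K9me2 region with H3K9me1 and H3K9me2 on both sides. The segment chr17:21103501-21125250 (21.8 kb) also met no gene and lay between H3K9me2 with H3K9me3 on one side and H3K9me1 with H3K9me2 on the other. By contrast, chr9:32382751-32403000 (20.2 kb) was a whole H3K9me2 region with unmarked sequence on both sides, and 47.2% of it was intron of Kcnj1. Another whole region among the 10, chr9:42849001-42866250 (17.2 kb), lay in Grik4 with 88.4% of its bases in introns. Their GC content ran from 40.6% to 48.3% and their soft-masked share from 12.1% to 61.5%.

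H3K9me2-only segments held few CpGs for their base content. The ratio of observed to expected CpG, which corrects for base content, was 0.163 over the pooled segments. It was 0.187 in H3K9me2 with H3K9me3, 0.193 in H3K9me1 with H3K9me2, 0.195 in unmarked sequence, 0.196 under all 3 marks, 0.204 in H3K9me3 only, 0.22 in H3K9me1 only and 0.241 in H3K9me1 with H3K9me3. The ratio of the H3K9me2-only set was lower than that of each of these 7 sets on 9 of 9 chromosomes. The mean difference over chromosomes ranged from -0.0309 against H3K9me2 with H3K9me3 to -0.0792 against H3K9me1 with H3K9me3. Chromosomes are not replicates and no test was made.

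GC content was 42.6% of the pooled bases, and was higher than in unmarked sequence (40.9%) on 8 of 9 chromosomes. It was lower than in H3K9me1 only (46%) and in H3K9me1 with H3K9me2 (44.9%) on 9 of 9. It was also lower than under all 3 marks (43.5%) and in H3K9me1 with H3K9me3 (44.8%) on 8 of 9. H3K9me2 with H3K9me3 had nearly the same pooled GC content (42.5%), but the segments were lower on 9 of 9 chromosomes. Against H3K9me3 only (42.2%) the segments were higher on 6 chromosomes and lower on 3, so no common direction was seen. Soft-masked bases made up 31.3%, which was below H3K9me3 only (41%) and above H3K9me1 only (24.9%) on 9 of 9 chromosomes. Against unmarked sequence (34.4%) the direction was mixed, with 6 chromosomes lower and 3 higher. CpG density was 7.4 per kb in the segments, 9.08 in H3K9me3 only and 11.6 in H3K9me1 only, with the segments lower on 9 of 9 chromosomes in both comparisons. Against unmarked sequence (8.17 per kb) the direction was mixed, with the segments lower on 6 chromosomes and higher on 3.

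**Figure D3:**
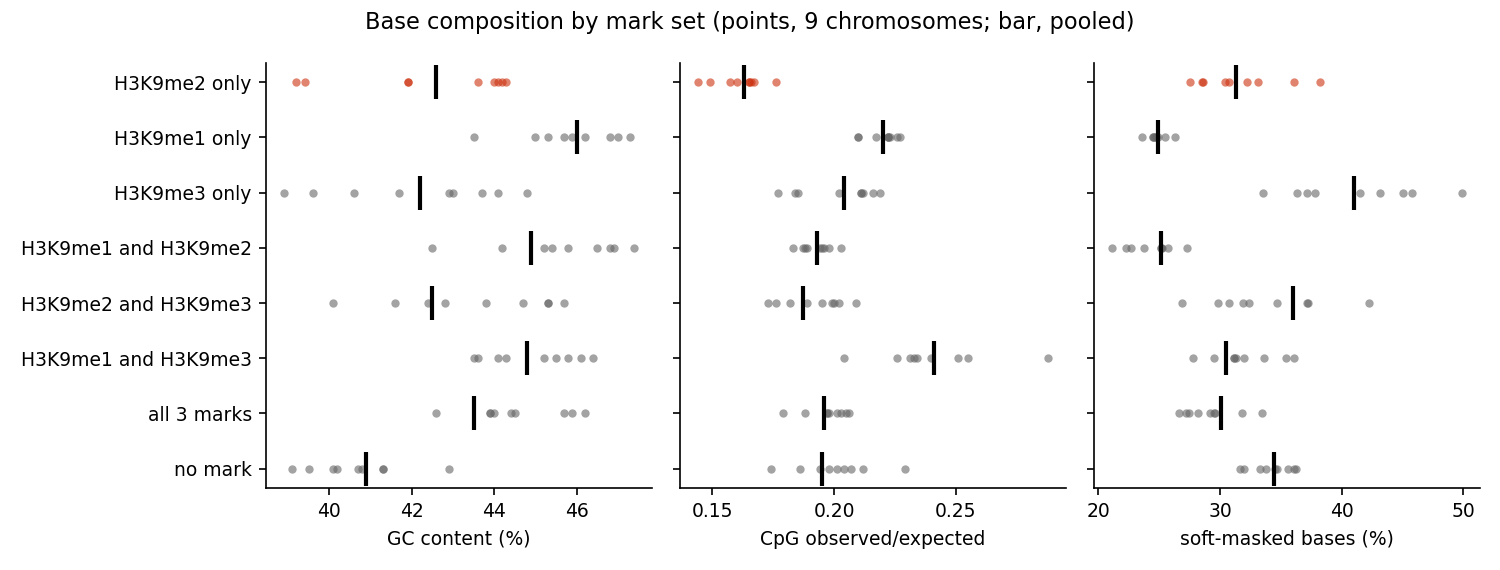
Base composition by mark set (y), with GC content (left, %), the ratio of observed to expected CpG (middle) and soft-masked bases (right, %). Points are the 9 chromosomes and black bars the pooled value, and axes do not start at 0. The H3K9me2-only set (red) has the lowest pooled CpG ratio of the 8 sets, 0.163.

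Single segments varied widely. The quartiles of the 8823 were 39.7% and 45.1% for GC content and 16.4% and 40.2% for soft-masked bases, with medians of 42.5% and 25.1%. At least 80% of the bases were soft-masked in 556 segments (6.3%), and 13 segments reached a GC content of 55%. By chromosome, the median GC content was 39.2% on chromosome 10 and 39.4% on chromosome 15 and between 41.7% and 44.3% on the other 7. Chromosomes 10 and 15 were also those with the widest H3K9me2 coverage.

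Composition followed the mark beside the segment. Segments with H3K9me1 beside them had a pooled GC content of 43.4%, those with no other mark 42.9% and those with H3K9me3 beside them 41.6%. On 9 of 9 chromosomes the H3K9me1-bordered segments were above, and the H3K9me3-bordered segments below, those with no other mark beside. CpG density had the same order on 9 of 9 chromosomes, with pooled values of 8.01, 7.46 and 6.78 per kb. Soft-masked shares (29.7%, 31.1% and 32.2%) had no common order over chromosomes. Pooled GC content rose with width, from 42.1% in segments of 1.5 kb to 43.1% in those of at least 6 kb. Within chromosomes there was no common order, since the wider segments were higher on 5 chromosomes and lower on 4.

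At the edge of the 3057 segments with no other mark beside, GC content changed within a single bin. It was 41% in the first bin outside and 42.6% in the first bin inside. CpG density fell towards the edge from outside, from 8.09 per kb at 14.6 kb away to 6.68 in the first bin outside, and was 7.45 in the first bin inside. Bins farther out include sequence under other marks, since 56.7% of the bins at 14.6 kb were unmarked against 100% in the first bin. Bins deeper inside come from wider segments.

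**Figure D4:**
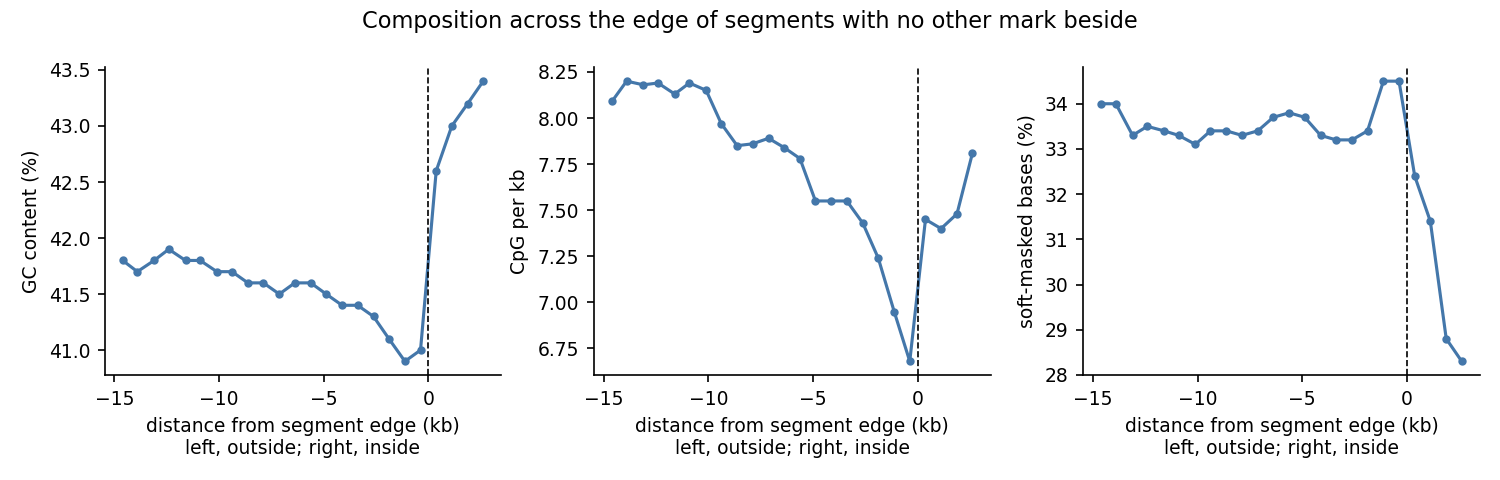
GC content (left, %), CpG per kb (middle) and soft-masked bases (right, %) in bins of 750 bp by distance from the edge (x, kb; negative outside, positive inside) of segments with no other mark beside. Points are pooled over both edges, and axes do not start at 0. GC content steps from 41% to 42.6% at the edge and CpG density dips to 6.68 per kb just outside.

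Gene annotation placed H3K9me2-only segments mainly between genes and in introns. Of their bases, 56.2% were intergenic, 36.8% intronic, 2.22% exonic and 4.75% within 1 kb of a transcription start site. Introns and intergenic sequence thus held 93%, against 89.9% of all sequence on the 9 chromosomes, 94.7% of H3K9me3-only bases and 81.5% of H3K9me1-only bases. The share near start sites lay between those of H3K9me3 only (3.61%) and H3K9me1 only (10.2%), and below the 6.61% of all sequence. By the first class a segment met, 975 segments (11.1%) reached a promoter window, 835 an exon, 2412 an intron only and 4601 (52.1%) no gene at all.

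Of 22392 annotated genes on the 9 chromosomes, 646 had a start site in a segment, or 2.88%. Among 9632 protein-coding genes there were 255, or 2.65%. Per Mb of sequence, the segments held the starts of 9.07 protein-coding genes, compared with 4.97 in H3K9me3 only, 5.08 in H3K9me2 with H3K9me3, 14.1 in H3K9me1 with H3K9me2, 22 in H3K9me1 only and 14.2 in unmarked sequence. The density was 8.98 under all 3 marks and 28.8 in H3K9me1 with H3K9me3. The dimethyl-only segments were thus poorer in gene starts than unmarked sequence and close to all 3 marks. They were richer than the sets with H3K9me3 and without H3K9me1. For 92 of the 255 genes every annotated start lay in a segment, while 100 of them had another start under no mark and 101 had one under another mark set. By gene type, 157 of 3600 processed pseudogenes (4.36%), 91 of 2445 lincRNAs (3.72%), 35 of 641 unprocessed pseudogenes (5.46%) and 8 of 115 T cell receptor variable segments (6.96%, interval 3.57 to 13.1%) had a start in a segment. Shares below the 2.88% of all genes were found for antisense RNAs (21 of 1328, 1.58%), genes of the class TEC, whose coding status is unsettled (15 of 1321, 1.14%), miRNAs (12 of 831, 1.44%), snRNAs (8 of 567, 1.41%) and snoRNAs (7 of 539, 1.3%).

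The 300-base windows around RefSeq starts were poor in CpG where the start lay in a segment. The 279 such windows, from 251 genes, had a median of 3 CG dinucleotides, with quartiles of 1 and 5, against a median of 8 over all 14308 windows and of 16 over the 9317 unmarked ones. Of the 255 protein-coding genes with an annotated start in a segment, 113 had such a window, so the sets of genes differ. Windows in the other sets with H3K9me2 were also low, with medians of 3 for H3K9me1 with H3K9me2 and 4 both for H3K9me2 with H3K9me3 and for all 3 marks. At least 15 CG were present in 2.51% of the H3K9me2-only windows, in 37.5% of all windows and in 23.7% of those in H3K9me3 only. The Sp1-type motif GGGCGG was in 6.81%, compared with 37.4% of all windows, 13.6% in H3K9me1 with H3K9me2, 15.2% in H3K9me2 with H3K9me3 and 11.1% under all 3 marks. TATAAA was in 14.7% against 12.8%, the E-box CACGTG in 3.94% against 7.83% and CCAAT in 46.6% against 37.5%, all searched on both strands. CGs also occur within CACGTG and GGGCGG, so these counts are not separate.

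Among the gene families, olfactory receptors, which are expressed in sensory neurons of the nose, had the most starts in segments. They were 53 of 458 genes (11.6%, interval 8.96 to 14.8%), beside 2.65% of all protein-coding genes. Chromosome 11 held 31 of the 53, and 37.8% of its 82 olfactory receptor genes had a start in a segment, against 0.835% of its 1557 other protein-coding genes. On chromosome 9 the value was 1 of 132. Without chromosome 11 the share was 5.85% (22 of 376, interval 3.9 to 8.7%), beside 2.64% of protein-coding genes there. When only the 5′ end of the gene was counted, with chromosome 11 included, the share was 5.9% for olfactory receptors and 1.51% for all protein-coding genes. By the 5′ end and without chromosome 11, it was 2.93% (11 of 376, interval 1.64 to 5.16%), beside 1.53% of protein-coding genes there. The widest segments with such starts were one of 12 kb with Olfr51 and Olfr54, one of 11.2 kb with Olfr1507 and one of 9.75 kb with Olfr462 and Olfr463. Across the whole family of 458, 83 genes had a start under all 3 marks, beside 8.76% of all protein-coding genes. No mark lay at any start of 255. That share was not computed over all protein-coding genes, of which 77.5% had at least 1 start under no mark.

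Defensins, which are antimicrobial peptides, had 6 of 51 genes with a start in a segment (11.8%, interval 5.51 to 23.4%), beside 2.65% of all protein-coding genes. They were Defa24, Defa32, Defb13, Defb30, Defb37 and Defb40. All but Defb30 lie on chromosome 8. Defb40 (chr8:18974940-18978256) had its single start in a 3.75 kb segment that covered 52.9% of the gene, and Defb37, beside it, started in another of 3.75 kb. Within 400 kb on either side of the Defb40 start there were 19 segments, with 54 kb, and the starts of 12 defensin genes. Of these genes, only Defb40 and Defb37 started in a segment. Chromosome 8 as a whole had 10.2 segments per Mb and 2.98% of its sequence in segments. More defensin genes had a start under H3K9me3 only (18) or under H3K9me2 with H3K9me3 (14) than under H3K9me2 alone. Those 2 sets held starts of 4.37% and 3.81% of all protein-coding genes.

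Potassium channel genes of the Kcn group had 6 of 37 with a start in a segment (16.2%, interval 7.65 to 31.1%), beside 2.65% of all protein-coding genes. By the 5′ end only the count was 3 of 37, beside 1.51% of all protein-coding genes. More Kcn genes had a start under H3K9me1 only (12) or H3K9me3 only (7) than under H3K9me2 alone. Those sets held starts of 33.5% and 4.37% of all protein-coding genes. H3K9me2 with H3K9me3 held starts of 4 Kcn genes, beside 3.81%, and all 3 marks of 5, beside 8.76%. Kcnj1 stood in the 20.2 kb segment described above, and 86.9% of the gene lay in segments. Its neighbour Kcnj5, a G protein-gated channel of the heart, had every one of its 3 starts in a segment of 6.75 kb. Kcnma1 had 1 of 14 starts in a segment of 9.75 kb, and Kcnu1 (5.25 kb), Kcnmb4 (2.25 kb) and Kcnk9 (1.5 kb) completed the group. Of other ion channel and receptor groups, Scn4a, the sodium channel of skeletal muscle, was 1 of 8 Scn genes (interval 2.24 to 47.1%) and Gabrp, a GABA-A receptor subunit, 1 of 9 Gabr genes (1.99 to 43.5%). With the other marks widened by 1500 bp on each side, the counts were 34 of 458 olfactory receptors, 3 of 51 defensins and 2 of 37 potassium channel genes, beside 153 of all 9632 protein-coding genes. None of the 14 Cacn, 13 Gri and Grm, 6 Htr and 8 Adra, Adrb and Drd genes had a start in a segment.

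Other groups had few starts in segments, and their shares are to be read beside the 2.65% of all protein-coding genes. In the Trem cluster Treml4 was the single gene of 6, with 4 of its 5 starts in an 8.25 kb segment. H2-M11 and H2-M5 were 2 of 34 H2 genes (5.88%), and Cyp2c54, Cyp19a1 and Cyp4f40 were 3 of 58 cytochrome P450 genes (5.17%), enzymes that oxidise drugs, steroids and fatty acids. Vmn2r90 was 1 of 52 vomeronasal Vmn2r genes (1.92%), Cdh18 1 of 15 cadherins (6.67%) and Zfp811 1 of 153 Zfp zinc finger genes (0.654%). The intervals of the H2, Cyp, Vmn2r, cadherin and Zfp shares all included 2.65%. Of the gene bodies, 100% of H2-M11, 54.8% of H2-M5, 42.1% of Zfp811 and 40% of Cyp19a1 lay in segments. Of 15 fibroblast matrix and surface genes, Dcn, which encodes the collagen-binding proteoglycan decorin, had 2 of 5 starts in a 1.5 kb segment, and its other starts lay under no mark or under H3K9me1 with H3K9me2.

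No start in a segment was found for 79 keratin and keratin-associated protein genes (Wilson upper limit 4.64%). Nor was one found for 19 Hox, 18 Fox, 9 Sox, 8 Tbx and 8 Nkx genes, which are developmental regulators. The same held for 16 Ccl, 9 Cxcl, 17 Ly6, 19 Ces, 22 Slc22a, 15 Taar, 14 Vmn1r, 12 Ugt, 6 Pcdh, 5 Cntn and Cntnap, 5 Tmem132 and 4 Serpin genes. It also held for the 14 germline genes, the 10 housekeeping genes and the 4 genes of H3K9 methylation on these chromosomes. With so few genes in most groups the upper limits are wide, for example 21.5% for 14 genes, and lie above the 2.65% background. Taar genes, receptors for trace amines, all started under all 3 marks, where 8.76% of all protein-coding genes had a start. No mark lay at any start of 15 of 19 Hox genes. The same share over all protein-coding genes was not computed, but 77.5% of them had at least 1 start under no mark.

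**Figure D5:**
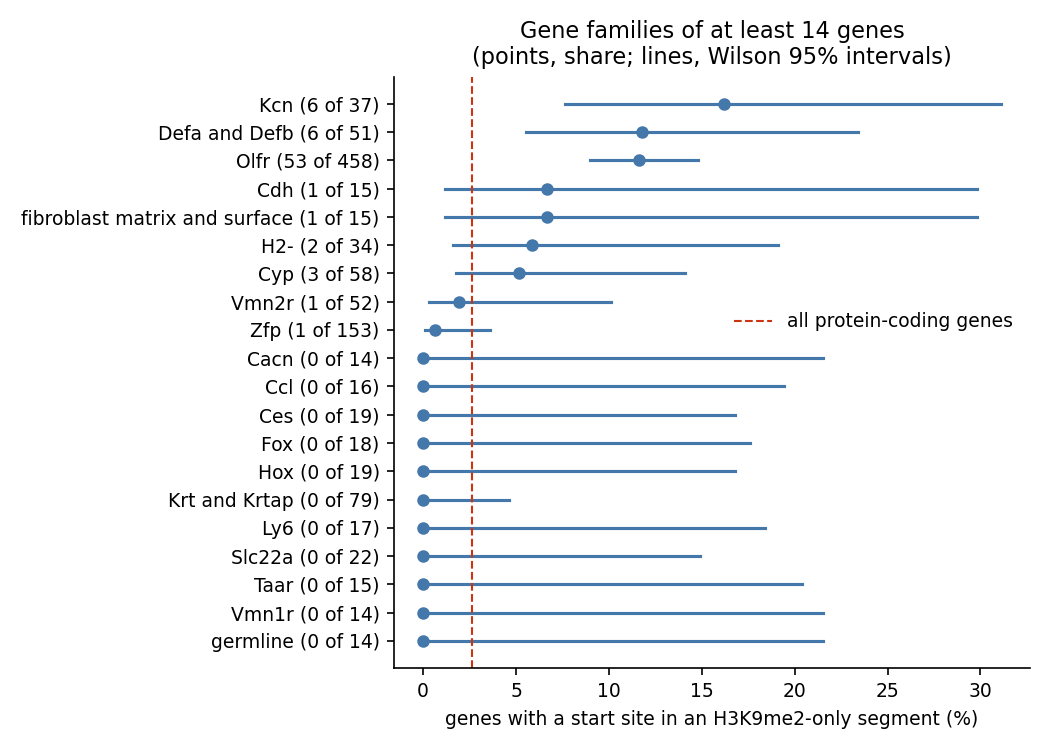
Share of genes with a start site in an H3K9me2-only segment (x, %) for the families and lists of at least 14 protein-coding genes (y, with counts). Points are shares, lines Wilson 95% intervals and the dashed line the 2.65% of all protein-coding genes. Potassium channels (16.2%), defensins (11.8%) and olfactory receptors (11.6%) have intervals above the dashed line.

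Of the genes that the study shows as examples or controls, Defb40, Treml4 and Olfr1431 had a start in a segment. Olfr1431 had 1 of 3 starts in a segment of 2.25 kb and Treml4 started in one of 8.25 kb. Actb had no mark at its 9 starts, Pou5f1 and Tcap were under H3K9me1 only, and Nkx6-1 was under H3K9me3 only. Cacna1i started under H3K9me1 with or without H3K9me2. Bbs9 had starts under H3K9me1 only and under no mark, and 0.364% of it lay in segments.

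The 20 protein-coding genes that started in the widest segments lay in segments of 10.5 to 20.2 kb. Pou2af1 also started in a segment of 10.5 kb and tied with the last of them. Order by chromosome name, read as text, and by position decided. Another order of ties could change which genes are among the 20 and how many lie on chromosome 14. Kcnj1 (20.2 kb) and Cnpy1 (18.8 kb), a modulator of FGF signalling, led the order. The granzyme gene Gzme (12.8 kb), the mast cell protease gene Mcpt2 (10.5 kb) and the inflammasome sensor gene Nlrp1b (12 kb) followed, with Cysltr2, a leukotriene receptor, in a segment of 12.8 kb. Gzme and Mcpt2 lay wholly in segments on chromosome 14. The ribonuclease genes Rnase2a (11.2 kb), Ang2 and Ear14 (both in one of 10.5 kb) are part of the cluster in the fullest window. Myocd, a cofactor of smooth and cardiac muscle genes, had 1 of 6 starts in a segment of 12 kb, and Slc26a5, the motor protein prestin of the inner ear, had 1 of 5 in one of 10.5 kb. The others were Olfr51, Olfr54, Olfr1507, Lrrc18, Prss51, Prss55, C1qtnf7, Rpl10-ps3 and 4930512M02Rik. Of the 20 genes, 10 lie on chromosome 14. Chromosome 14 also held 49 of the 255 protein-coding genes with any start in a segment. They were 5.43% of its protein-coding genes, the highest share of the 9 chromosomes, beside 2.65% over all.

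Gene bodies were seldom covered far. Of 4344 protein-coding genes of at least 20 kb, 772 (17.8%) had a base in a segment and 271 had at least 10% of their length in segments, while the 99th percentile was 27%. Kcnj1 was highest at 86.9%. It was followed by Cdhr1, a cadherin of photoreceptors, at 65.4%, Oxgr1, an oxoglutarate receptor, at 63.9% and Pou2af1, a coactivator of B cells, at 62.7%. Gm5622 (52.4%), Prrxl1, a homeobox gene of sensory neurons (49.7%), Antxrl (48.7%), Phf11a (48.6%), Cysltr2 (45.8%) and Scara3 (41.3%) completed the 10. Of these 10, 8 lie on chromosome 14 and 2 on chromosome 9, the 2 chromosomes where the highest shares of H3K9me2 bases lay in segments. Chromosome 14 held 902 of the 9632 protein-coding genes of any length on the 9 chromosomes. Cdhr1 and Scara3 had an unmarked start, and Gm5622 and Prrxl1 started under H3K9me3 only, so a gene body in segments did not require a start there.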

How the data were processed

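The 8 samples, which carry labels of wild type MEFs, were 2 replicates each of input, H3K9me1, H3K9me2 and H3K9me3. According to the study's methods and the submitters' processing notes, the authors aligned reads to mm10 (GRCm38) with BWA 0.7.1 and called regions with histoneHMM. How replicates and input entered the call is not given in the sources used here. The deposited lists give chromosome, start and end on a grid of 750 bp bins, with no score. Counting starts from 1 and including the end base, 0 positions were off this grid.

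Each chromosome was split into maximal runs by mark set, and runs of at least 1500 bp were kept. The splitting was tested on 50 simulated lists, of which 0 were split wrongly. Genes came from GENCODE M21 (GRCm38), and sequence and soft-masking from GRCm38.p6. Each base was classed in the order promoter (1000 bp either side of a start site), exon, intron, intergenic. RefSeq start windows (GRCm38.p6) were matched by symbol for 186 of the 255 protein-coding genes, and 113 had a window starting in a segment. Genes named are the study's examples, the 20 in the widest segments, the 10 with the highest body share (at least 20 kb), the family members with a start in a segment (the widest where there were more than 15), and the 10 widest segments and 5 fullest windows, of which the leading ones are described. The segments, gene lists and 37 families were chosen with earlier results of these data known. No test was made, since no value per replicate was given. Intervals are Wilson 95% intervals. Python 3.11.15, NumPy 2.4.6 and Matplotlib 3.10.9 were used.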

Additional observations from a re-analysis of the deposited data

How the results depend on the processing

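No paired analysis was possible because each mark has 1 list and no value per replicate, and leaving out each replicate could not be run for the same reason. Of 45 alternatives, 26 left the value within 1.5 times (counts, lengths and widths), within its Wilson interval (shares) or within 1 SD over chromosomes (composition). The number of segments was 4042 with a minimum run of 3000 bp, 1002 with 6000 bp and 4897 when the other marks were widened by 1500 bp. The bases were 7.96 Mb with a minimum of 6000 bp and 16.7 Mb with widened marks, and the median width was 3.75 kb and 7.5 kb with minima of 3000 bp and 6000 bp, which the limit itself sets. The share of genes with a start in a segment was 2.32% by the 5′ end only, 4.43% within 1 kb of a start, 2.65% for protein-coding genes, 3.18% and 0.862% with minima of 750 bp and 6000 bp, 1.8% with widened marks and 3.23% without chromosomes 10 and 15. The share of whole regions was 33.8% with regions up to 1500 bp apart joined, 45.4% with a minimum of 6000 bp and 40.1% without chromosomes 10 and 15. The soft-masked share was 25.1% as the median over segments, and introns and intergenic sequence held 96.4% by protein-coding genes only. Apart from limits that follow from construction, the cause of these changes was not tested. The number of reads under a region is not given, so a mark under the calling limit cannot be told apart from an absent one.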
